A study of Drosophila melanogaster with 4 samples.

Results

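The 385 Pipsqueak peaks of chromosome arm 3R were taken from the authors' list of 1661 peaks as every row placed on that arm, 23.2% of the list. Chromatin came from white prepupae of Drosophila melanogaster, the stage at which the larva comes to rest and turns into a puparium. It was immunoprecipitated with KW3-psq-D2, a rabbit polyclonal antibody raised against a stretch of the psq protein, and sequenced as 2 libraries beside 2 libraries of input DNA. The animals of both groups were of the strain Y cn bw sp. Its listed alleles were y[1], cn[1], bw[1] and sp[1], together with oc[R3.2], lab[R4.2] and CG33964[R4.2], and with Rh6[1], GstD5[1], MstProx[1], LysC[1], Gr22d[1] and Gr22b[1]. Whole animals were used, so cells of every tissue contributed. The list is a single result for the series and names no replicate. Each value below is therefore a description of that list, without a spread between replicates and without a test, since peaks are not replicates of a condition.

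Pipsqueak, the product of psq, is a BTB-domain protein that binds GAGA-rich DNA and is known to act with the GAGA factor and with Polycomb-group proteins, which keep developmental genes silent. Arm 3R carries both homeotic gene complexes of the fly, the Antennapedia and bithorax complexes, whose genes set the identity of body segments and are classical targets of Polycomb-group silencing. Positions are those of FlyBase release 5, in which 3R is numbered from the centromere outward. No genome or annotation of that release was used here, so peaks are named by position, and which genes, exons, introns or promoters they overlap, the homeotic complexes included, was not analysed here.

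Pipsqueak binding on 3R was made of many narrow, weak peaks and a small number of tall, wide ones, set in groups that were parted by long stretches without a peak. The first peak began at 225886 and the last ended at 27894069, a span of 27.7 Mb. The 385 peaks covered 284 kb of it, 1.03%. Their median width was 430 bp, with the middle 50% between 275 and 936 bp. Their median score, a number that the authors' peak caller gave each peak and whose quantity the file does not name, was 13.8. The middle 50% of scores lay between 10.2 and 29.0, the weakest peak had 6.45 and the strongest 179. Widths had a floor at 201 bp, the width of 10 of the 3R peaks and also the lowest on 2L, 3L and X, so the narrowest peaks do not measure a length of bound DNA. The map of peak scores along the arm shows tall peaks from end to end, with the red groups of 8 or more peaks spread between them.

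**Figure D1:**
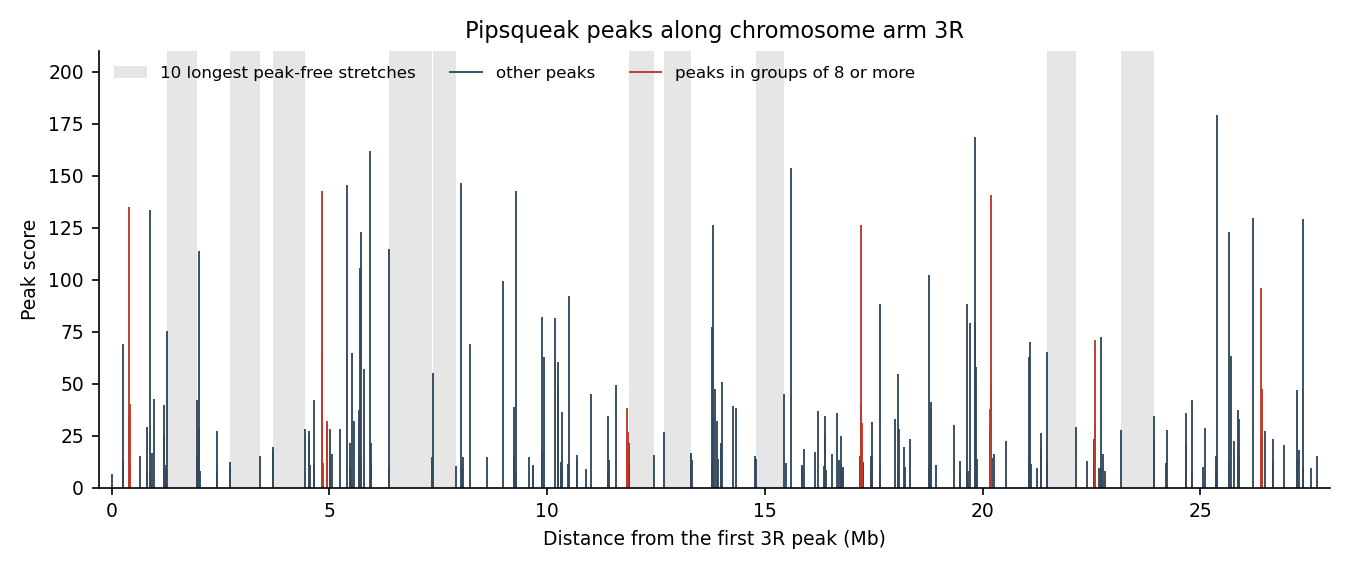
Score of each of the 385 Pipsqueak peaks of 3R (vertical lines, red for peaks in groups of 8 or more) against distance from the first 3R peak in Mb. Grey bands are the 10 longest stretches without a peak; the tallest line, with a score of 179, lies in the distal part of the arm.

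The strongest 3R peak was also the widest. It ran from 25597369 to 25602004, was 4636 bp wide and had a score of 179. It was the last of a group of 5 peaks, the other 4 of which were narrow and had scores between 8.65 and 15.5, and 280 kb without a peak followed it. The peak that came next in both score and width, at 20045249 to 20049347, was 4099 bp wide and had a score of 169. After it came 2 further strong peaks, of scores 79.2 and 58.0, within the same group.

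The next 4 peaks in order of score stood alone, with no other peak within 10 kb on either side, and were much narrower. The peak at 6156661 to 6157916 had a score of 162 over 1256 bp, and the peak at 15833192 to 15834912 a score of 154 over 1721 bp. The peak at 8251510 to 8252286 had a score of 146 although it was 777 bp wide, which placed it only 116th in width among the 385. The peak at 5634262 to 5635441 had a score of 146 over 1180 bp. Their nearest neighbours lay between 18.9 and 132 kb away.

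Of the 10 strongest peaks 4 were lone and 6 lay in groups of 2 to 12 peaks. The remaining 4 were the peaks at 5054598 to 5056956 (score 143), 9509420 to 9512982 (142), 20407458 to 20410088 (141) and 628893 to 631162 (135). They were between 2270 and 3563 bp wide, and each had another peak less than 1 kb away. The 11th peak in score, at 1106114 to 1109715, followed closely with 134, so the choice of 10 does not mark a break in the scores.

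The 10 widest 3R peaks measured 2993 to 4636 bp, and 3 of them were also among the 10 strongest. The others had scores between 75.5 and 134. They lay at 1106114 to 1109715, 17867244 to 17870702, 19871776 to 19875200, 1494821 to 1498027, 25881883 to 25885083, 10109601 to 10112735 and 17430805 to 17433797. The peak at 1494821 to 1498027 was the only lone one of the 10 and stood at the edge of 681 kb without a peak. The 11th in width measured 2795 bp.

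Score rose with width across the arm. For the 119 peaks under 300 bp the median score was 9.78, and none was above 18.4. The 95 peaks of 300 to under 500 bp had a median of 11.9, the 82 of 500 to under 1000 bp one of 18.5, the 63 of 1000 to under 2000 bp one of 36.1, and the 26 of 2000 bp or more one of 93.7. Width and score come from the same peak caller and are not independent. Exceptions ran both ways. The narrow peak at 10729628 to 10730175, of 548 bp, had a score of 92.1. The wide peak at 5051583 to 5054364, of 2782 bp, had a score of 27.4 and lay 233 bp from the far stronger peak at 5054598 to 5056956.

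In the middle classes of width, lone peaks on 3R had higher median scores than grouped peaks taken singly. Taken by group, the order was the opposite. The median highest score was 19.45 for lone peaks, 27.3 for pairs and 37.2 for groups of 3 to 4. It was 41.4 for groups of 5 to 7 and 111 for groups of 8 or more. The highest of several scores tends to be higher by construction. Among peaks of 500 to under 1000 bp the median score was 32.6 for the 30 lone peaks and 15.9 for the 52 grouped peaks. Their median widths in this class were 731.5 and 644.5 bp, so a part of the width difference remained. Among peaks of 1000 to under 2000 bp the medians were 56.3 for 16 lone and 33.9 for 47 grouped peaks, and here the lone peaks were the narrower, with median widths of 1230.5 and 1315 bp. For 300 to under 500 bp the medians were 14.4 for 24 lone and 11.5 for 71 grouped peaks. Under 300 bp the medians were close together, at 10.1 and 9.68. At 2000 bp or more they were 89.2 for 4 lone peaks and 105.6 for 22 grouped peaks, the opposite order. On 2L, 3L and X pooled, the medians for 500 to under 1000 bp were 20.1 for 57 lone and 17.2 for 134 grouped peaks, a smaller difference in the same direction. On 2L alone both medians in this class were 19.45. For 300 to under 500 bp 2L and 3L had the order of 3R. On X that order was reversed, at 12.25 for 19 lone and 12.64 for 53 grouped peaks. For 1000 to under 2000 bp the pooled medians were 43.2 for 25 lone and 32.4 for 94 grouped peaks, but on 2L alone they were 60.3 for 4 lone and 29.8 for 22 grouped peaks, wider apart than on 3R. For 2000 bp or more the pooled medians were 105.6 for 10 lone and 86.3 for 42 grouped peaks, the reverse of the order on 3R. On 3L alone the order was that of 3R, at 105.57 for 4 lone and 124.7 for 12 grouped peaks. It was the reverse on 2L, with 2 lone peaks, and on X, with 4. The difference between the arms was not tested.

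**Figure D2:**
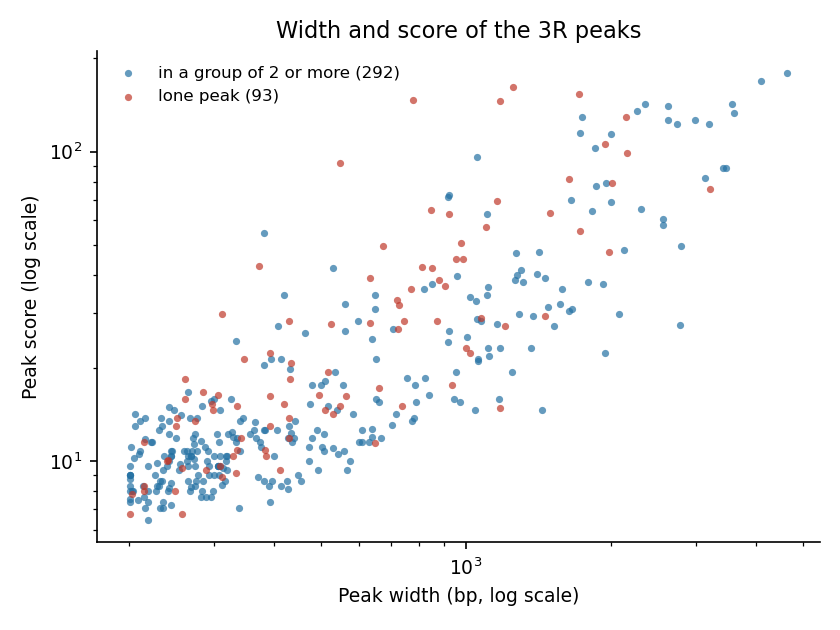
Score against width in bp of each of the 385 peaks of 3R, both on log scales, with 93 lone peaks in red and 292 grouped peaks in blue. Between about 500 and 2000 bp lone peaks have the higher medians, and some of them form the upper edge of the cloud while others reach down to scores of 11.5.

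Joining 3R peaks separated by 10 kb or less gave 161 groups, 5.82 per Mb of the span. Lone peaks made up 93 of them, and 68 held 2 or more peaks. Thus 292 of the 385 peaks, 75.8%, had company within 10 kb (exact Clopper-Pearson 95% interval 71.2 to 80.0, counting error only and taking peaks as independent, which peaks of a group are not). The share was 77.1% on 2L, 76.1% on 3L and 76.4% on X. Counting the 107 peaks of 3R in the top 25% of the list alone, 30.8% had such a peak for company, and after joining at 1 kb 46.3% of regions did. What varied between arms was the size of the groups. On 3R 41.3% of peaks lay in the 19 groups of 5 or more, against 20.3% on 2L, 34.7% on 3L and 34.1% on X. Pairs held 11.9% of the 3R peaks, against 24.7% on 2L, 19.3% on 3L and 21.6% on X. For groups of 8 or more the share on X, 27.9%, was above the 25.7% on 3R. No test of these differences was run, and a few large groups move the shares.

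**Figure D3:**
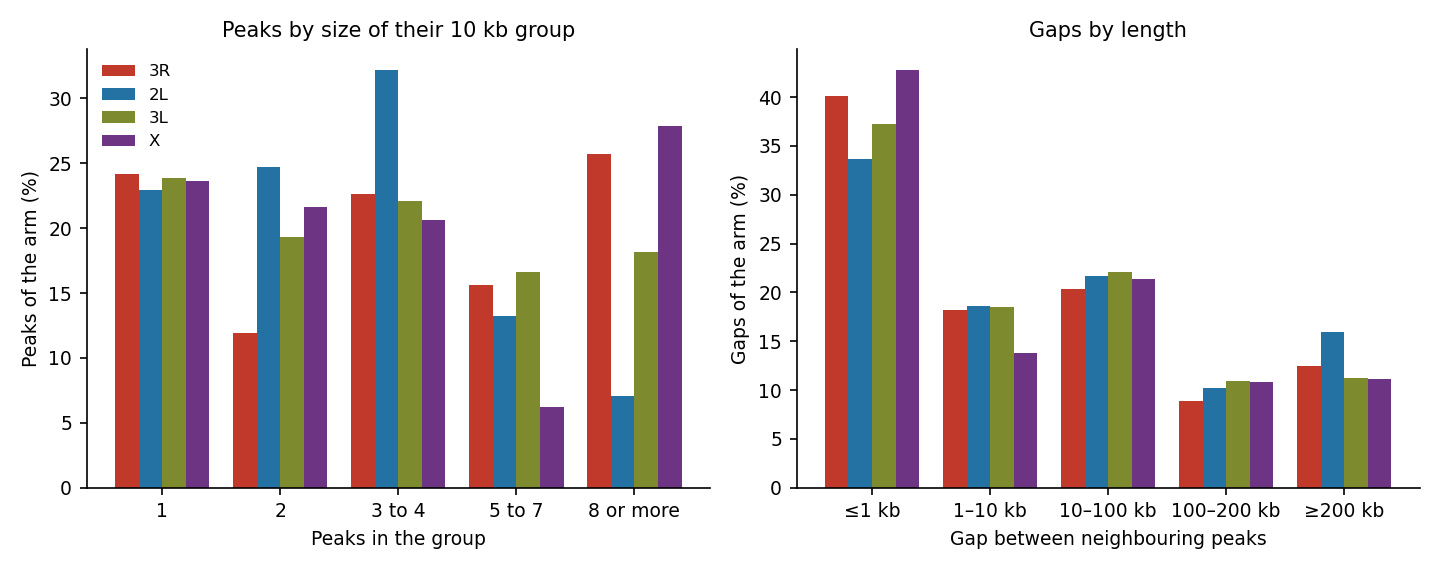
Left, percent of each arm's peaks by the number of peaks in their 10 kb group; right, percent of each arm's gaps between neighbouring peaks by length, for 3R, 2L, 3L and X. On 3R pairs hold 11.9% of peaks and groups of 8 or more hold 25.7%.

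The 8 groups of 8 or more peaks held 99 peaks and differed in make-up. The largest, with 19 peaks over 38.7 kb at 17423710 to 17462430, was built around a single dominant peak of score 126 at 17430805 to 17433797. The next peak in it had a score of 39.6, and 14 of the 19 stood at or below 14.2, the median score of the whole list. A group of 12 peaks over 28.2 kb at 5044787 to 5072947 held the peak of score 143 and another of 64.1. A group of 11 peaks over 23.1 kb at 20389851 to 20412941 held the peak of score 141 as its 10th peak, 58 bp from the last, of score 49.4. In a group of 14 peaks over 21.4 kb at 26615046 to 26636417 the highest score was 95.8. A group of 10 peaks over 22.2 kb at 22792504 to 22814698 had its highest score, 71.1, in the last peak.

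Some other large groups stayed at or below a score of 38.4. The group of 14 peaks over 24.3 kb at 12052043 to 12076350 reached a score of 38.4, and 1 of its peaks was in the top 25% of the whole list, above 27.3. The group of 11 peaks over 15.5 kb at 5164336 to 5179883 reached 32.2, with a next score of 30.0. In it 3 peaks were in the top 25%, the same count as in the 19-peak group. Peaks covered 59.5% of that group, more than the 27.9% of the 19-peak group. It held the widest run of 3R peaks with gaps of 1 kb or less, 8 peaks over 8697 bp at 5171187 to 5179883, of which they covered 80.2%. The most compact of the 8 groups lay near the centromere at 628149 to 636827. Its 8 peaks covered 85.3% of 8.68 kb, no gap exceeded 389 bp, and at 1 kb joining it became a single region, with a highest score of 135.

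**Figure D4:**
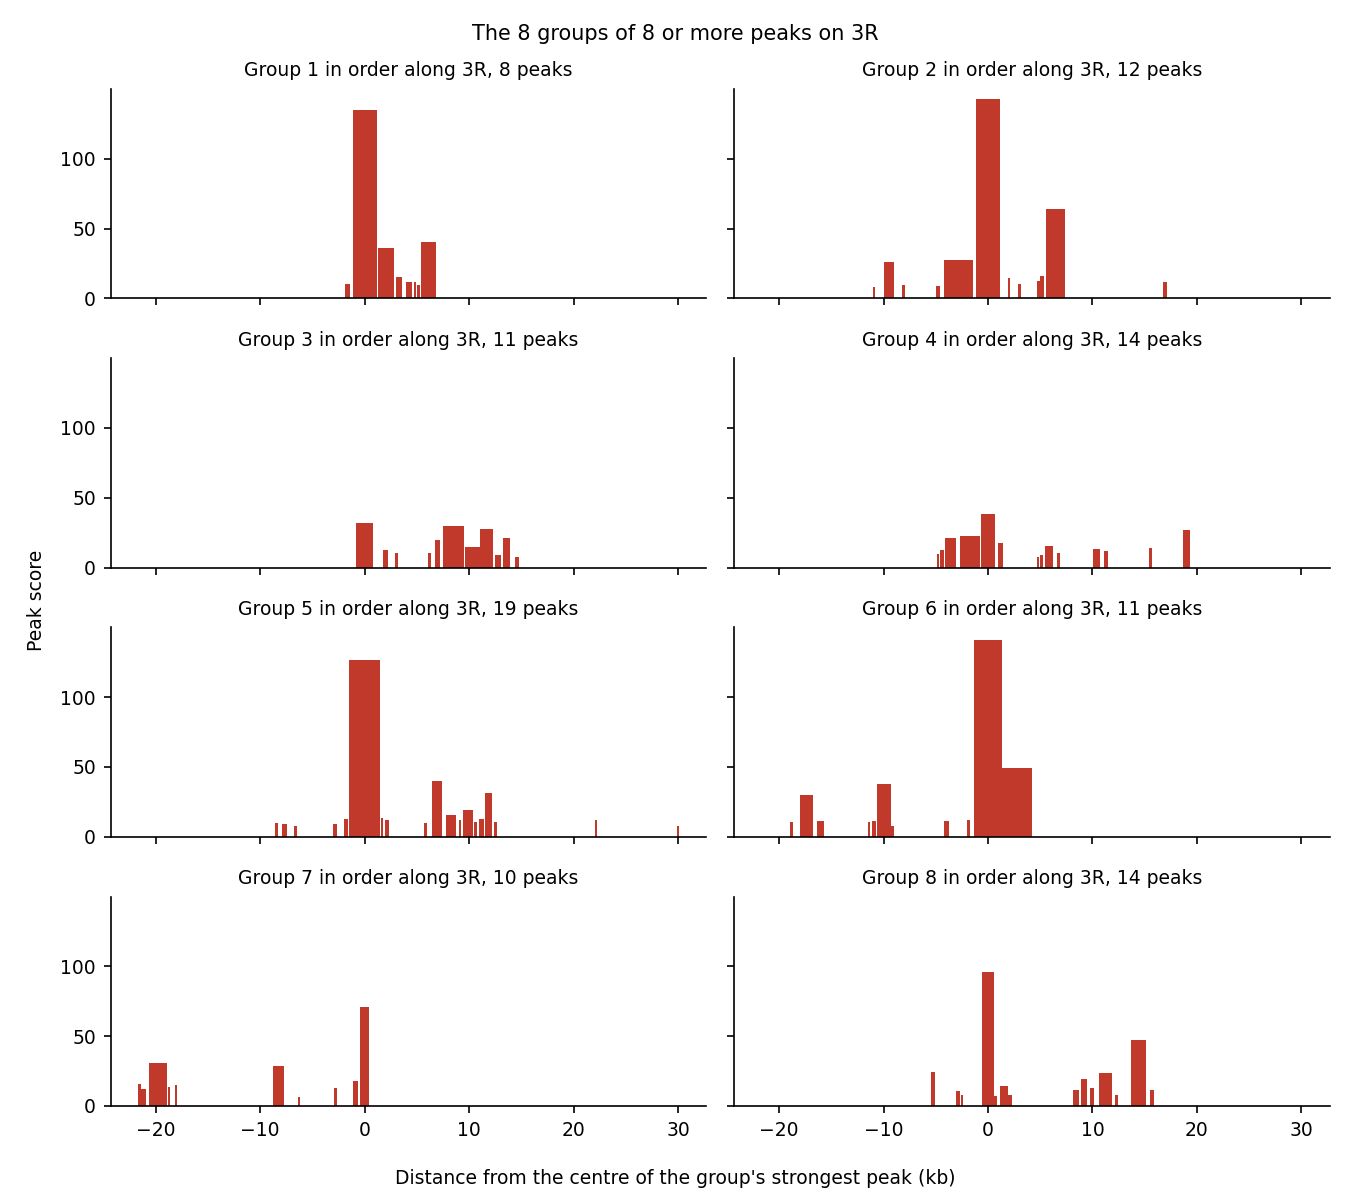
Peaks of the 8 groups of 8 or more peaks on 3R, in order along the arm, against distance in kb from the centre of each group's strongest peak; bars have the width and score of the peaks. A single tall bar leads groups 1, 2, 5 and 6, with scores from 126 to 143, while groups 3 and 4 stay at or below 38.4.

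In the 37 groups of 3 to 7 peaks the strongest peak had a median of 2.09 times the score of the second strongest, with a range of 1.07 to 11.6, and in 21 groups the ratio was 2 or more. In 10 of the 37 no peak reached the top 25% of the list. Of the grouped 3R peaks taken singly 23.3% were in it, so small groups can lack such a peak. The 11 groups of 5 to 7 peaks spanned 5574 to 16436 bp, and their highest scores ran from 12.6, at 17474493 to 17486861, to 179. In the group at 14009589 to 14026024 tall peaks stood at both ends, with scores of 77.4 for the second peak and 126 for the last, across 16.4 kb. In the group at 10105715 to 10112735 the last of 6 peaks had a score of 82.2 and the 5 before it scores between 8.32 and 17.6.

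Short gaps were the most numerous between neighbouring 3R peaks, while a small number of long ones took up most of the arm. Up to 1 kb parted 154 of the 384 pairs of neighbours, 40.1%, with 46 bp as the shortest gap. A further 70 gaps were over 1 and up to 10 kb, and 78 were over 10 and up to 100 kb. The 48 gaps of 200 kb or more made up 12.5% of the gaps but 68.4% of the span, 18.9 Mb. On 2L the same class took 72.7% of the span, on 3L 61.6% and on X 59.4%. The median gap was 3.30 kb on 3R, 7.68 kb on 2L, 4.27 kb on 3L and 3.29 kb on X.

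The longest stretch of 3R without a peak was 994 kb, from 6590030 to 7584508. Weak peaks bounded it, with scores of 7.55 and 8.65. After it came 4 peaks within 22.4 kb, the last of them with a score of 55.3, and then a further 533 kb without a peak, from 7606910 to 8139784. Together these made 1.55 Mb with 4 peaks. The other 8 of the 10 longest stretches ran from 23406687 to 24151868 (745 kb), 3935057 to 4671628 (737 kb), 2935278 to 3639271 (704 kb), 1498028 to 2179254 (681 kb), 15013615 to 15672940 (659 kb), 21710030 to 22359694 (650 kb), 12907162 to 13526368 (619 kb) and 12113168 to 12683416 (570 kb). The 10 made up 6.89 Mb, 24.9% of the span, and 7 of them started in the centromere-proximal part, before the midpoint of the span. The 20 peaks at their edges had a median score of 15.5, with a range of 7.55 to 75.5. The longest stretch was 1160 kb on 2L, 1152 kb on 3L and 636 kb on X. Stretches of 500 kb or more numbered 11 on 3R, 10 on 2L and 6 each on 3L and X. The spans of these arms differ, at 27.7, 21.7, 22.8 and 20.3 Mb in the same order, so the counts are not rates. A stretch without a peak is one in which no peak passed the authors' threshold, and mappability and copy number along it were not analysed here.

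The peaks were unevenly spread over the 28 bins of 1 Mb on 3R, from 2 to 41 peaks with a median of 11.5. The fullest bin, 5000001 to 6000000, held 41 peaks, of which 23 came from the groups of 12 and 11 peaks described above. It ranked first of the 28 by any of the 4 measures used, with 20 regions after joining at 1 kb, 12 groups after joining at 10 kb, and 34.2 kb covered. It also held 14 peaks in the top 25% of the list. The bin from 17000001 to 18000000 held 37 peaks, 19 of them in the largest group, but 8 groups, which put it 5th in groups. The bin from 26000001 to 27000000 held 26 peaks in 6 groups, 12th in groups. The emptiest bin, 23000001 to 24000000, held 2 peaks. The 3 fullest bins held 27.0% of the arm's peaks.

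Over 4 equal parts of the span the peaks were more even. From the centromere outward the parts held 103, 78, 111 and 93 peaks, in 40, 32, 51 and 38 groups. Median scores ran from 13.0 in the third part to 14.7 in the first. The share of peaks in the top 25% of the list was 30.1% in the first part and 26.9, 27.9 and 25.8% in the others.

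Against 2L, 3L and X, the 3R peaks had a near-equal median score and a larger share of peaks in the top 25% of the list. That cut was set on all 1661 peaks, so about 25% of the whole list lies above it by definition. The 3R peaks made up 23.2% of the list and those of 2L, 3L and X 52.0%. The rest of the list was not compared, so a larger share than on these arms does not set 3R apart from it. The median score was 13.8 on 3R, 13.6 on 2L, 13.8 on 3L and 14.7 on X. The difference of medians, 3R minus 2L, 3L and X pooled, was -0.41 with every peak counted and -0.945 among those in the top 25% of the list, but 4.79 among peaks above the list's median score and 3.68 for regions joined at 1 kb. Within the top 25% the median was 47.5 on 3R, 53.3 on 2L, 55.5 on 3L and 46.3 on X. The 75th percentile was 29.0 on 3R, against 22.9 on 2L, 23.6 on 3L and 25.3 on X. Scores in the top 25% of the list, above 27.3, were held by 107 of the 385 peaks of 3R, 27.8%, against 18.9% on 2L, 21.8% on 3L and 22.6% on X. Scores over 100 were held by 21 peaks on 3R, 5.45%, against 8 (3.52%) on 2L, 17 (5.14%) on 3L and 5 (1.64%) on X. The very highest scores were not on 3R: the strongest peaks of 2L and 3L had scores of 206 each. The difference from the other arms was wider for lone than for grouped peaks. Of the 93 lone peaks of 3R 41.9% were in the top 25% of the list, against 21.2% of 52 on 2L, 25.3% of 79 on 3L and 31.9% of 72 on X. Of the grouped peaks 23.3% of 292 on 3R were that strong, against 18.3% of 175 on 2L, 20.6% of 252 on 3L and 19.7% of 233 on X. These differences between arms were not tested, because the list gives no replicate of an arm.

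Among these arms X had the largest median width and 3R the largest 75th percentile of width. The median was 430 bp on 3R, 413 bp on 2L, 411 bp on 3L and 460 bp on X, and the 75th percentile 936, 819, 841 and 813 bp. Peaks of 1000 bp or more made up 23.1% on 3R, 18.5% on 2L, 19.0% on 3L and 21.6% on X. Peaks of 2000 bp or more made up 6.75% on 3R, 7.05% on 2L, 4.83% on 3L and 6.56% on X. The difference of median widths, 3R minus 2L, 3L and X pooled, was 6 bp with every peak and -114 bp among peaks in the top 25% of the list. The widest peak of 3R, 4636 bp, was narrower than the widest of 3L, 6343 bp, and of 2L, 5178 bp, and wider than that of X, 4391 bp. Once joined across gaps of up to 1 kb, the 231 regions of 3R had a median width of 853 bp, against 582, 614.5 and 737 bp on 2L, 3L and X. Their median highest score was 21.3, against 16.8 on 2L and 17.6 on both 3L and X.

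**Figure D5:**
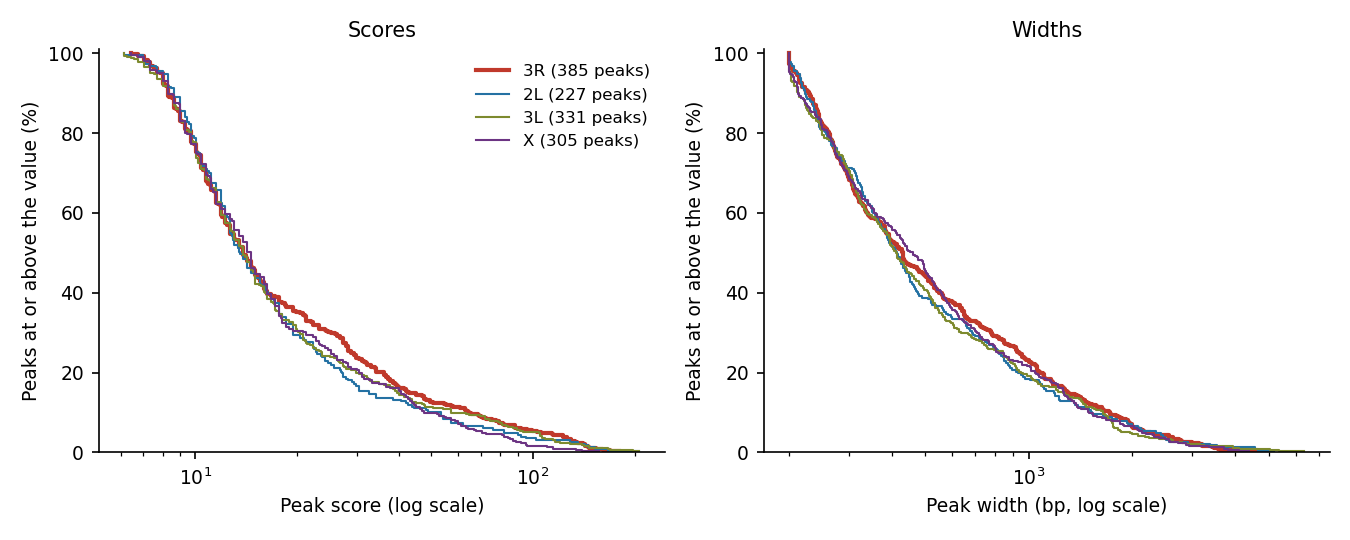
Percent of each arm's peaks at or above a given score (left) and a given width in bp (right), on log axes, for 3R (385 peaks), 2L (227), 3L (331) and X (305). The curves lie together up to the median, near a score of 13.8 on 3R, and the 3R curve lies highest around a score of 27.3, above which lie the top 25% of the list.

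Per Mb of the span from first to last peak, 3R carried 13.9 peaks, against 10.4 on 2L, 14.5 on 3L and 15.0 on X. Peaks covered 1.03% of the span on 3R, 0.741% on 2L, 1.02% on 3L and 1.07% on X. Thus 3R was covered to about the extent of 3L and X by fewer peaks per Mb.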

How the data were processed

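Chromatin immunoprecipitated with the antibody against Pipsqueak (2 libraries) and input DNA (2 libraries) were sequenced from white prepupae, and groups were taken from the sample titles. The deposited file, which its header places on FlyBase release 5, gives the position of each peak and the score that the authors' caller assigned. The submitters' processing notes name the build BDGP5 and the tools MACS2, BWA and CASAVA, the last in versions 1.7.0.3 and 1.7.0.2. The settings of these tools, the peak threshold, the handling of duplicate and repeated reads, and whether replicates were pooled were not given in the sources used here. A pooled call would not show which listed peaks were seen in a single replicate, and the threshold sets which weak peaks are listed. Depth per library is unknown.

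Peaks on 3R, 2L, 3L and X were compared by counts, medians and percentiles with Python 3.11.15, numpy 2.4.6, pandas 2.3.3 and scipy 1.17.1, and drawn with matplotlib 3.10.9. Gaps were counted from edge to edge and joined at 10 kb (groups) or 1 kb (regions). A peak was put in the bin of its centre. The span ran from the first to the last peak, since arm lengths were not used here. Grouping was checked on simulated data. The regions named are the 10 strongest and 10 widest peaks, groups of 8 or more peaks, the 5 longest groups, which are among these, the 10 longest peak-free stretches and the 3 fullest bins of 1 Mb. Other peaks and groups singled out, and the classes of width and of lone and grouped peaks, were chosen after their values were seen. The arm and these lists were chosen with earlier results of these data known. No sequence is shown, because no genome of release 5 was used here.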

Additional observations from a re-analysis of the deposited data

How the results depend on the processing

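No paired analysis was possible because the deposited peaks are not assigned to replicates, and none could be left out. All settings below were planned. The count of 161 groups on 3R was 180 with joining at 5 kb and 142 at 20 kb, 127 with peaks above the median score of the list, and 86 with those in its top 25%. The share of 3R peaks in groups, 75.8%, was 71.2% at 5 kb, 80.5% at 20 kb, 45.9% above the median score, 30.8% in the top 25%, and 46.3% for regions joined at 1 kb first. The comparison of medians with 2L, 3L and X pooled had no steady sign. For width, 3R minus the others was 6 bp with every peak, 149.5 bp above the median score, -114 bp in the top 25% and 200.5 bp for regions. In mean log2 width it was 0.0561. For score it was -0.41 with every peak, 4.79 above the median score, -0.945 in the top 25%, 3.68 for regions and 0.0897 in mean log2 score. The longest peak-free stretch, 994 kb, was 1001 kb above the median score and 2436 kb in the top 25%. The share of the span in stretches of 200 kb or more, 68.4%, was 76.1% and 83.8% in these settings, and 86.5% was in stretches of 100 kb or more. The 13.9 peaks per Mb became 6.75 and 3.95, and 8.35 regions per Mb. With fewer peaks entering, no gap between the peaks that remain can become shorter, by construction. The number of groups need not fall, since dropping a weak peak can split a group. The cause of the changes of sign was not tested. Without depth per library, it cannot be told whether weak binding went unlisted where no peak was called.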

Other observations

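The heterochromatic scaffold of the same arm, 3RHet, held 1 peak, at 162156 to 162437, with a width of 282 bp and a score of 19.8. It is not among the 385 peaks described above.

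Of the 154 pairs of neighbouring 3R peaks 1 kb or less apart, 8 had both scores in the top 25% of the list (5.19%), 64 had 1 and 82 had none. Of the grouped 3R peaks taken singly, 23.3% were in the top 25%, and a share of pairs near the square of that is not a result about close neighbours. The median of the lower score in a pair was 10.8 and that of the higher 26.1. Among the 70 pairs over 1 and up to 10 kb apart 1 had both in the top 25%, and among the 160 pairs farther apart 16 did (10.0%). Pairs farther apart include the lone peaks, of which 41.9% taken singly were in the top 25%. Pairs up to 10 kb apart include no lone peak, and whether the counts depend on distance was not tested. On 2L, 3L and X the pairs 1 kb or less apart had both scores in the top 25% in 1 of 76, 1 of 123 and 4 of 130. Of the grouped peaks of these arms taken singly, 18.3%, 20.6% and 19.7% were in the top 25%, lower shares than on 3R. The counts are small, and whether they differ between the arms beyond these shares was not tested. A peak can belong to a pair on each side, so the pairs are not independent, and no test was run.

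Scores on 3R were often tied. They took 193 values over the 385 peaks, and 12 peaks had the same score of 10.4, the most frequent one.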
